A study of Mus musculus with 6 samples.

Results

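Collagen genes are described here in ovarian RNA of mice that differed in litter size, that is, in how many pups a female bears at once. The members are the 44 protein-coding genes with a symbol made of Col, a number, the letter a and a number, out of 36727 genes in the deposited table. There were 6 libraries: replicates 1, 3 and 4 of animals with high litter size and replicates 1, 2 and 5 of animals with low litter size. All samples were labelled as ovarian tissue, staged by estrous phase, from adult F4 inbred Swiss albino females aged 135 to 140 days. Litter size is the only difference that the labels give between the groups, and they do not say whether a sample was 1 animal or a pool. The p-values thus rest on how far these samples differ within groups, and that spread may be technical.

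Collagens are proteins, most of them secreted, built from alpha chains that wind around each other into a rigid helix. Fibrillar types (I, III and V in most soft tissue) make the ropes that carry tension, and fibril-associated types, called FACIT, sit on the surface of those ropes. Type IV forms the sheet-like network of basement membranes, which in the ovary surround each follicle and the blood vessels. Type VI forms beaded microfibrils between cells and fibrils. Ovarian stroma, the follicle wall and smooth muscle all contain collagen, and the matrix is cut and rebuilt around each ovulation.

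Total estimated counts ran from 17620903 to 24758222 per library. The libraries did not all look alike as ovary. The 8 granulosa cell markers summed to 36.9, 27.1 and 477 CPM (counts scaled to a common library total) in high replicates 1, 3 and 4, against 453, 51.8 and 367 CPM in low replicates 1, 2 and 5. The 8 oocyte markers summed to 1.53, 3.62 and 69.3 CPM in high replicates 1, 3 and 4, against 14.6, 3.15 and 49.5 CPM in low replicates 1, 2 and 5. The 8 luteal and steroidogenic cell markers summed to 204, 255 and 11079 CPM in high replicates 1, 3 and 4, against 807, 100 and 3691 CPM in low replicates 1, 2 and 5. High replicates 1 and 3 and low replicate 2 were thus low in all 3 lists that define ovary, with 3, 1 and 3 of the 8 oocyte markers at 0 counts, and their values go against the tissue label. Log2 fold changes without these 3 libraries are given below for the members that the results turn on. Only high replicate 4 then stands against low replicates 1 and 5, and those values rest on 1 high library. In whole tissue, fewer cells of a type and less RNA per cell cannot be told apart.

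None of the 40 collagen genes that passed the filter on low counts passed the test between high and low litter size (edgeR quasi-likelihood test, adjusted p below 0.05), a rule that called 0.00608% of all 16455 genes tested. The smallest p was that of Col6a4, followed by those of Col17a1 and Col6a3. Col6a4, a chain of type VI microfibrils, averaged 208 ± 88.7 CPM in high and 1850 ± 687 CPM in low libraries (SD, n = 3 each; log2 fold change -3.15, SE 0.48, adjusted p = 0.14). Col6a1, Col6a2 and Col6a3 also lay lower in all 3 high libraries than in any low library, whereas the fibrillar chains overlapped between the groups. At an unadjusted p below 0.05 edgeR gave 10 of the 40 collagen genes, 4 of them higher and 6 lower on average in the high libraries, where 14.4% of all tested genes met that rule. DESeq2, which called 6.56% of genes with a defined adjusted p, called 6 collagen genes: Col6a4, Col6a3 and Col4a3 with negative log2 fold changes, and Col17a1, Col23a1 and Col12a1 with positive ones. Limma voom, which called 0.0182% of genes, called no collagen gene. The groups did not overlap for 8 of the 40, where 19.5% of all tested genes met that rule. The high libraries were above in 3 (8.75% of all tested genes) and below in 5 (10.8%).

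The median log2 fold change of the 40 genes was -0.12, beside 0.07 over all tested genes. By class the medians were -0.30 for fibrillar, 0.27 for basement membrane, 1.07 for FACIT and -1.47 for microfibril genes. The FACIT median rested on high replicate 1, without which it was 0.20. Without the 3 libraries of lowest ovarian markers the FACIT median was -0.14 and the microfibril median -2.50. The microfibril median was -0.95 without low replicate 5 and -2.04 without high replicate 1. The fibrillar median turned positive without low replicate 5. The basement membrane median turned negative without high replicate 1, and also without the 3 libraries of lowest ovarian markers. The 4 members that did not pass the filter were Col2a1, the main cartilage collagen, with 0, 0 and 1 counts in high replicates 1, 3 and 4 and 1, 1 and 4 counts in low replicates 1, 2 and 5; Col9a1, with 0 counts in all 6 libraries; Col19a1, with at most 4 counts in any library; and Col10a1, a collagen of maturing cartilage, with 1 to 32 counts.

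Collagen genes together held 2.27, 0.887 and 0.936% of the estimated counts in high replicates 1, 3 and 4, against 1.34, 1.58 and 3.43% in low replicates 1, 2 and 5. High replicate 1 and low replicate 5 were the richest libraries of their groups. Of the 40 tested members, 15 were highest in high replicate 1 and 17 in low replicate 5. Microfibril genes held 0.396, 0.180 and 0.163% in high replicates 1, 3 and 4, against 0.619, 0.584 and 1.34% in low replicates 1, 2 and 5. That was the only one of the 4 classes described at length whose share did not overlap between the groups. Fibrillar genes held 1.41, 0.430 and 0.50% in high replicates 1, 3 and 4, against 0.560, 0.768 and 1.69% in low replicates 1, 2 and 5, so the overlap was wide.

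**Figure D1:**
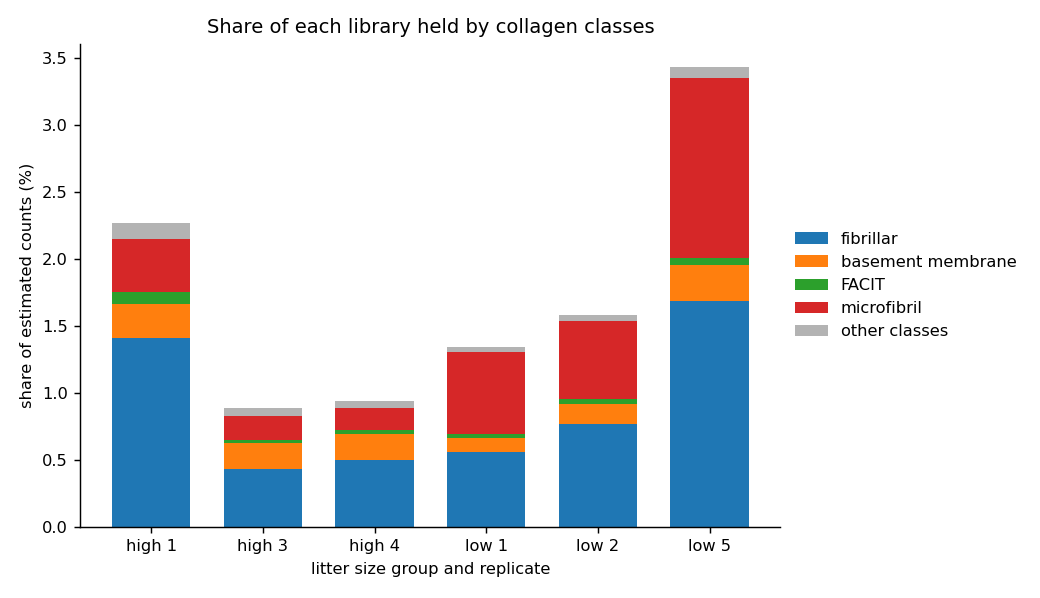
Share of each library's estimated counts (%, vertical axis) held by collagen classes, stacked, for high replicates 1, 3 and 4 and low replicates 1, 2 and 5. The microfibril part stays at or below 0.396% in the high libraries and at or above 0.584% in the low libraries, while the fibrillar part is large in high replicate 1 and low replicate 5.

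Per length of transcript, the most abundant collagen mRNA over the 6 libraries was Col3a1, at 667 CPM per kb. It was followed by Col1a2 (423 CPM per kb), Col6a1 (393), Col1a1 (294), Col6a2 (286), Col4a1 (164), Col6a4 (140), Col6a3 (139) and Col4a2 (105). These are levels, averaged over both groups. In the high group alone the level of Col6a4 was 28.2 CPM per kb, below that of Col5a2 (72.4), while in the low group alone it was 251 CPM per kb, above that of Col4a1 (139).

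Over all 6 libraries, fibrillar genes showed no difference that stood out from the spread within groups. Of 11 genes 10 passed the filter, 1 with a positive and 9 with negative log2 fold changes. Their adjusted p ran from 0.512 to 0.976 (edgeR quasi-likelihood test). Some values grew without the 3 libraries of lowest ovarian markers, which left 1 high library. They were then -2.28 for Col1a1, -1.65 for Col1a2, -2.03 for Col5a1 and -2.03 for Col24a1. Col3a1 had -0.80 and Col5a2 -0.81. Col5a3 had -0.08, Col11a2 -0.11, Col27a1 -0.04 and Col11a1 1.14. Col1a1 (chromosome 11, 94936224 to 94953042, GRCm38, GENCODE M21 annotation, as for all positions of genes here), which makes the alpha 1 chain of type I collagen, had 2505, 1019 and 513 CPM in high replicates 1, 3 and 4, against 1103, 1545 and 3771 CPM in low replicates 1, 2 and 5. High replicate 1 lay above low replicates 1 and 2. The log2 fold change was -0.67 (SE 0.73), and without low replicate 5 it was 0.02. Col1a2, the partner chain of type I (chromosome 6, 4504814 to 4541544), had 3123, 1205 and 1015 CPM in high replicates 1, 3 and 4, against 1828, 2015 and 4400 CPM in low replicates 1, 2 and 5. The libraries stood in the same order as for Col1a1. The difference was -0.63 on the log2 scale (SE 0.61), with -1.33 to -0.11 when any 1 library was left out.

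Col3a1 makes type III collagen, which runs with type I in stretchable tissues (chromosome 1, 45311538 to 45349706). It had 6025, 2233 and 2425 CPM in high replicates 1, 3 and 4, against 2078, 3322 and 6196 CPM in low replicates 1, 2 and 5. The richest libraries of the groups were close to each other, and the groups covered much the same range (log2 fold change -0.12, SE 0.62, with -0.75 to 0.40 when any 1 library was left out). Within libraries, Col3a1 stood at 2.56, 2.34 and 5.03 times the level of Col1a1 per kb in high replicates 1, 3 and 4, against 2.01, 2.29 and 1.75 times in low replicates 1, 2 and 5. The high libraries all had the larger ratio, with high replicate 4 far above the rest. That library also had the largest sum of luteal and steroidogenic cell markers, 11079 CPM, and the part of those cells in the ratio was not tested.

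Col5a1 and Col5a2 make type V collagen, which starts type I fibrils and limits their width. Col5a1 (chromosome 2, 27886425 to 28039514) had 407, 288 and 156 CPM in high replicates 1, 3 and 4, against 300, 342 and 948 CPM in low replicates 1, 2 and 5. It had the smallest p of the fibrillar genes, with a log2 fold change of -0.90 (SE 0.56, edgeR adjusted p = 0.512), and the value was -0.18 without low replicate 5. Col5a2, which lies tail to tail with Col3a1 at a distance of 24614 bases, had a log2 fold change of -0.18 (SE 0.54), and Col5a3, a minor chain of type V, had -0.07 (SE 0.33).

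Col11a1, the only fibrillar gene with a positive log2 fold change, makes a chain of type XI collagen, a thin-fibril collagen known best from cartilage (chromosome 3, 114030540 to 114220718). It had 35.5, 4.0 and 30.4 CPM in high replicates 1, 3 and 4, against 6.93, 2.88 and 19.96 CPM in low replicates 1, 2 and 5. The values split each group into libraries above and below 10 CPM, and the log2 fold change of 1.23 had an SE of 0.93 and ran from 0.79 to 2.25 when any 1 library was left out. Its partner Col11a2 had -0.46 (SE 0.37). Of the other minor fibrillar chains, Col24a1 had -0.11 (SE 1.18) and spanned 0.999 to 33.1 CPM among the high libraries, and Col27a1 had -0.43 (SE 0.33).

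**Figure D2:**
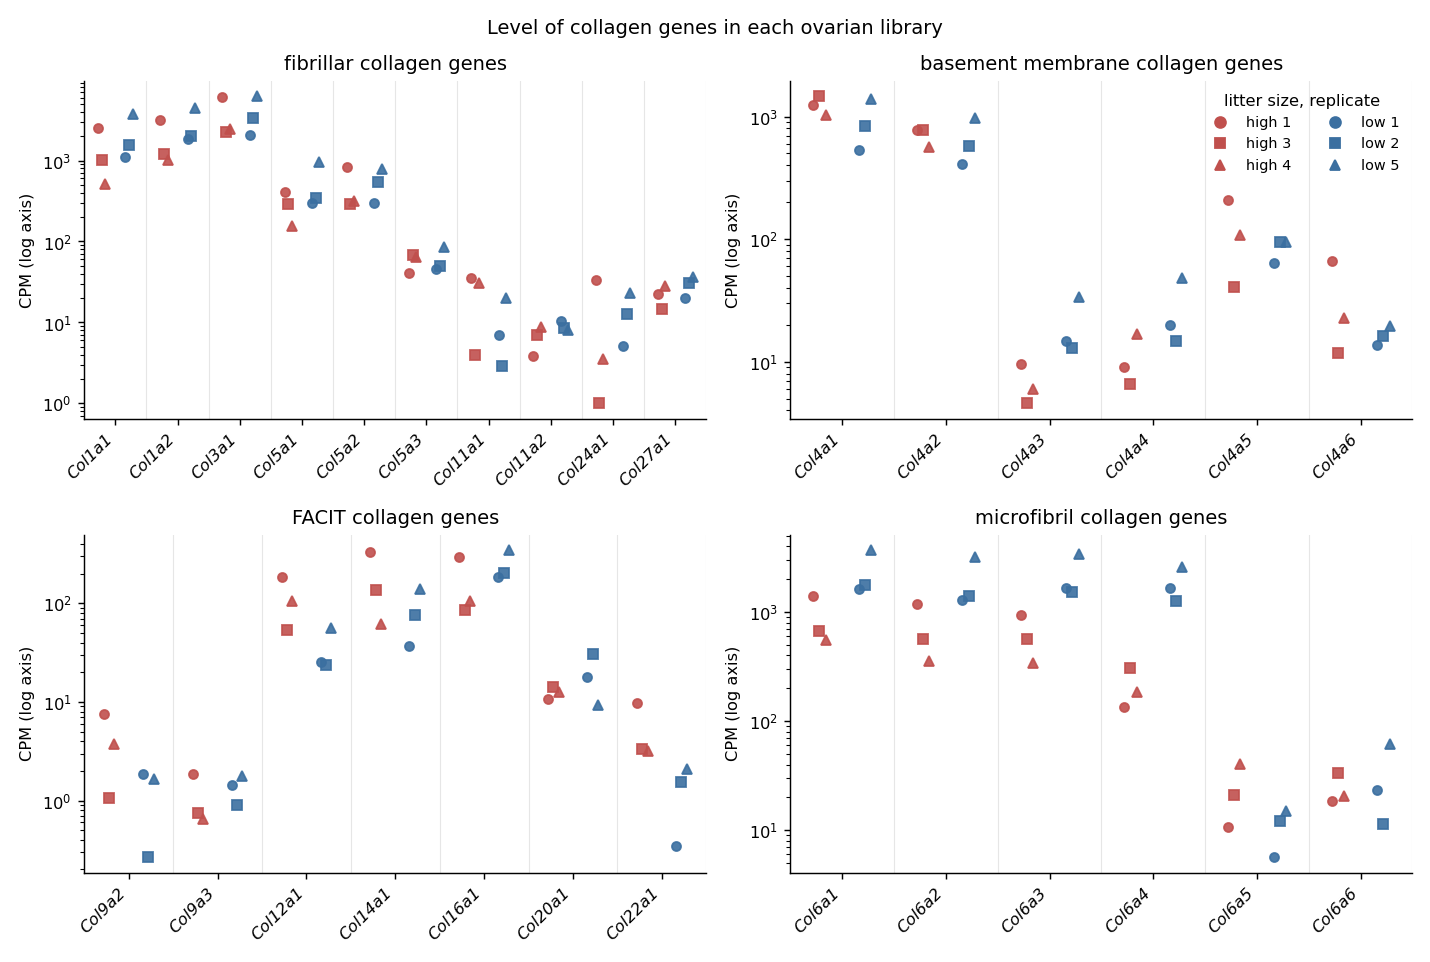
Level in each library (CPM, log axis) of the tested fibrillar, basement membrane, FACIT and microfibril genes; red symbols are the high and blue symbols the low litter size libraries, 1 symbol per replicate. The groups lie apart for Col6a1, Col6a2, Col6a3 and Col6a4 (Col6a4 at 133 to 306 CPM in the high and 1269 to 2607 CPM in the low libraries), and red and blue mix for the fibrillar genes.

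Microfibril genes differed most among themselves. All 6 type VI genes passed the filter, 1 with a positive and 5 with negative log2 fold changes, and their adjusted p ran from 0.14 to 0.805. A type VI monomer joins an alpha 1 chain (Col6a1), an alpha 2 chain (Col6a2) and 1 long chain, which is alpha 3 (Col6a3) in most tissues and can be alpha 4, 5 or 6 (Col6a4, Col6a5, Col6a6). Col6a4, Col6a5 and Col6a6 lie side by side on chromosome 9, all on the minus strand, with gaps of 28810 and 27917 bases and no other protein-coding gene between them. The human counterpart of Col6a4 is broken by a chromosomal rearrangement. The 3 genes are related in sequence, and how far kallisto, which divides reads between similar transcripts, moved reads among them was not tested.

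The stretch upstream of the start is shown for the alpha 1 to alpha 3 genes, whose high libraries all lay below their low libraries, and for Col6a5, whose log2 fold change had the opposite sign (adjusted p = 0.421 with edgeR). Sequences are from RefSeq (GRCm38.p6), run 5′ to 3′ on the gene's strand, and leave out bases annotated as exon. Capitals mark GC boxes, the letters GGGCGG or, for a box on the other strand, the letters CCGCCC. The places are chr10:76726169-76726294 for Col6a1, chr10:76623631-76623880 for Col6a2, chr1:90843972-90844221 for Col6a3 and chr9:105960644-105960893 for Col6a5, each on the minus strand.
Col6a1: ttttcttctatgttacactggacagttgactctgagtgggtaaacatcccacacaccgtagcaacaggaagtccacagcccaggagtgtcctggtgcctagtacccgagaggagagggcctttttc
Col6a2: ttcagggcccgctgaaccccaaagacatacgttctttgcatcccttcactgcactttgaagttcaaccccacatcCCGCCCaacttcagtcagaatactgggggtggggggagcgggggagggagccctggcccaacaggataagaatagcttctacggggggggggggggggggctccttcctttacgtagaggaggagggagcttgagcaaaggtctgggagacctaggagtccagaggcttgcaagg
Col6a3: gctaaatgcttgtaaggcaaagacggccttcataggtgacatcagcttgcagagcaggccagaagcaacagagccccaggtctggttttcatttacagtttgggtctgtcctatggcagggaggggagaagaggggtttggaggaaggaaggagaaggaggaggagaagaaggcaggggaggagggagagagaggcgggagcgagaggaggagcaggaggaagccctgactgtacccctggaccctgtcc
Col6a5: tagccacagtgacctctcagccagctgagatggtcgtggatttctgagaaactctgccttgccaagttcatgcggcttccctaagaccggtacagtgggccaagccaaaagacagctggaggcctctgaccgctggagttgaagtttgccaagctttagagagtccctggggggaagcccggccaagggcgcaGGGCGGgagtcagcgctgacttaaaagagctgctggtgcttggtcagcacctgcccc

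In the 250 bases upstream of the start, Col6a1 and Col6a3 held none of the 3 motifs searched on both strands: the GC box, the CCAAT box and the TATA box (letters TATAAA). No 2 matches overlapped in these type VI windows. Col6a2 held 1 GC box, at 175 bases, Col6a5 held 1, at 57 bases, and Col6a6, which is not printed, held 2, at 142 and 91 bases. Col6a4, whose window is covered by annotated exons and is not printed, held CCAAT at 218 bases and GC boxes at 173 and 141 bases. Among the 35 collagen genes with a RefSeq promoter, 60.0% held a GC box in this window, beside 32.7% of all 32851 promoters. The collagen genes are all protein-coding, and the full set of promoters was not matched to them for gene type or level. CCAAT was held by 34.3% of the collagen promoters and 33.8% of all promoters, and TATAAA by 14.3 and 12.4%. A match is a run of letters and not a tested binding site.

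Col6a4 (chromosome 9, 105989454 to 106096783) had 133, 306 and 184 CPM in high replicates 1, 3 and 4, against 1673, 1269 and 2607 CPM in low replicates 1, 2 and 5. The highest of the high libraries lay more than 4-fold below the lowest of the low libraries. These levels rested on 2609 to 4901 counts in the high and 23796 to 66896 counts in the low libraries. The log2 fold change stayed between -3.55 and -2.82 when any 1 library was left out, and it was -3.57 without the 3 libraries of lowest ovarian markers. The adjusted p was 0.14 with edgeR, 0.131 with limma voom and 8.22e-10 with DESeq2.

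Col6a3 (chromosome 1, 90765923 to 90843971) had 929, 560 and 338 CPM in high replicates 1, 3 and 4, against 1673, 1536 and 3382 CPM in low replicates 1, 2 and 5. The groups did not overlap (log2 fold change -1.85, SE 0.53, edgeR adjusted p = 0.239, DESeq2 adjusted p = 0.00725). Col6a1 (chromosome 10, 76708792 to 76726168) had 1386, 666 and 549 CPM in high replicates 1, 3 and 4, against 1628, 1752 and 3691 CPM in low replicates 1, 2 and 5. High replicate 1 came close to low replicate 1, and the log2 fold change was -1.44 (SE 0.54, edgeR adjusted p = 0.319). Col6a2, 85161 bases from Col6a1 on the same strand (chromosome 10, 76595762 to 76623630), had 1177, 568 and 357 CPM in high replicates 1, 3 and 4, against 1293, 1396 and 3207 CPM in low replicates 1, 2 and 5. It followed Col6a1 from library to library (log2 fold change -1.49, SE 0.60, edgeR adjusted p = 0.336). Without low replicate 5 the log2 fold changes were -1.40 for Col6a3, -0.96 for Col6a1 and -0.94 for Col6a2, and without high replicate 1 they were -2.32, -1.98 and -2.11. Without the 3 libraries of lowest ovarian markers they were -2.94, -2.31 and -2.69.

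The neighbours of Col6a4 showed other patterns. Col6a5 had 10.6, 21.0 and 40.0 CPM in high replicates 1, 3 and 4, against 5.66, 12.3 and 15.1 CPM in low replicates 1, 2 and 5, a log2 fold change of 1.11 (SE 0.56, edgeR adjusted p = 0.421). Col6a6 had 18.7, 33.7 and 20.7 CPM in high replicates 1, 3 and 4, against 23.4, 11.4 and 61.2 CPM in low replicates 1, 2 and 5, a log2 fold change of -0.40 (SE 0.60). The Col6a5 value was 0.48 without high replicate 4 and 1.91 without the 3 libraries of lowest ovarian markers, and the Col6a6 value was 0.48 without low replicate 5 and -1.07 without the 3 libraries. Both overlapped between the groups and stood far below Col6a4 in every library. Per kb, Col6a5 stood at 0.0544 to 0.173 times the level of Col6a4 in the high libraries and at 0.00269 to 0.00767 times in the low libraries.

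Ratios within a library do not depend on its depth or scaling, and they separated the type VI chains. The ratio of Col6a4 to Col6a3 per kb was 0.197, 0.749 and 0.747 in high replicates 1, 3 and 4, against 1.37, 1.13 and 1.06 in low replicates 1, 2 and 5. Col6a4 was thus the lesser of these chains in all high libraries and the greater in all low libraries, with high replicate 1 lowest. The ratio of Col6a3 to Col6a1 was 0.249 to 0.341 in the high libraries and 0.356 to 0.417 in the low libraries, so these groups lay close without overlap. The ratio of Col6a1 to Col6a2 was 1.33 to 1.75 in the high libraries and 1.31 to 1.43 in the low libraries, and they overlapped. These ratios were chosen after the values were seen and are descriptions.

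**Figure D3:**
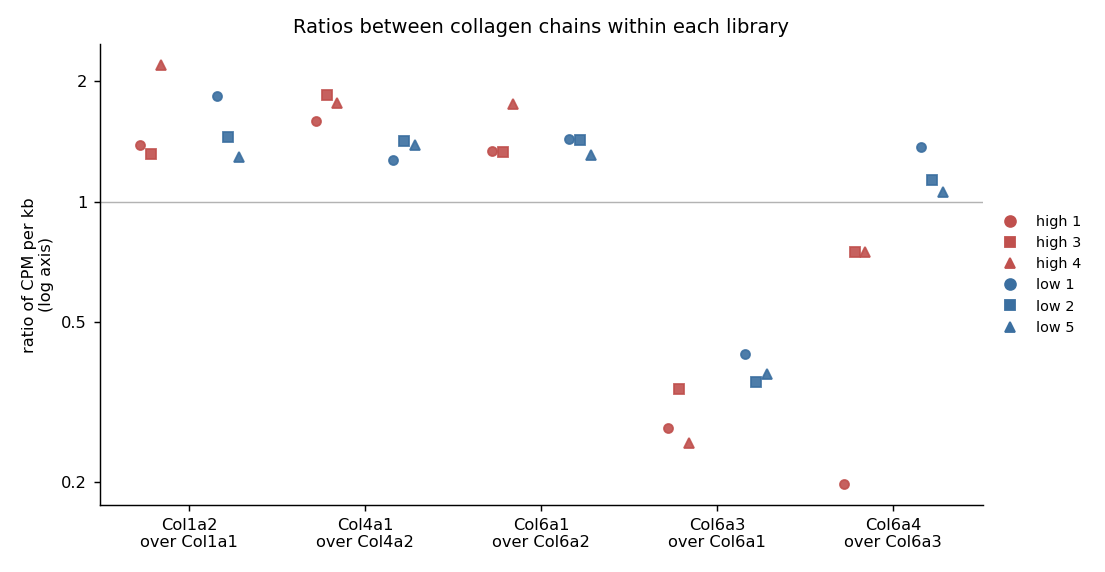
Ratio of CPM per kb of transcript between pairs of collagen chains (log axis) in each library; red symbols are the high and blue symbols the low litter size libraries. Col6a4 over Col6a3 is 0.197 to 0.749 in the high libraries and 1.06 to 1.37 in the low libraries, while Col6a1 over Col6a2 stays between 1.31 and 1.75 throughout.

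Lists of cell type markers were read beside these chains. The 7 fibroblast markers, all detected in all libraries, summed to 4079, 1940 and 2827 CPM in high replicates 1, 3 and 4, against 2683, 3932 and 4118 CPM in low replicates 1, 2 and 5, with a median log2 fold change of 0.10. These sums overlapped, and the fibroblast list did not set the groups apart. The 7 smooth muscle markers summed to 3288 to 10511 CPM in the high libraries and 8183 to 15765 CPM in the low libraries, with 7 of 7 log2 fold changes negative. The 7 markers of simple and Mullerian epithelium summed to 422 to 2109 CPM in the high libraries and 1863 to 3553 CPM in the low libraries. Of the 7, 6 had negative log2 fold changes. For these 6 all high libraries lay below all low libraries, where 10.8% of all tested genes met that rule. Ovgp1, the other marker, had 1380 CPM in high replicate 4 and 421 CPM in low replicate 5. The 7 adipocyte markers had 7 of 7 positive log2 fold changes, with a median of 2.63. The size of these values rested on high replicate 3, without which they ran from 0.66 to 1.66. The adipocyte markers summed to 28726 CPM there, 3322 and 2695 CPM in high replicates 1 and 4, and 3277 CPM in low replicate 2. The part of any of these cell types in the type VI values was not tested.

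**Figure D4:**
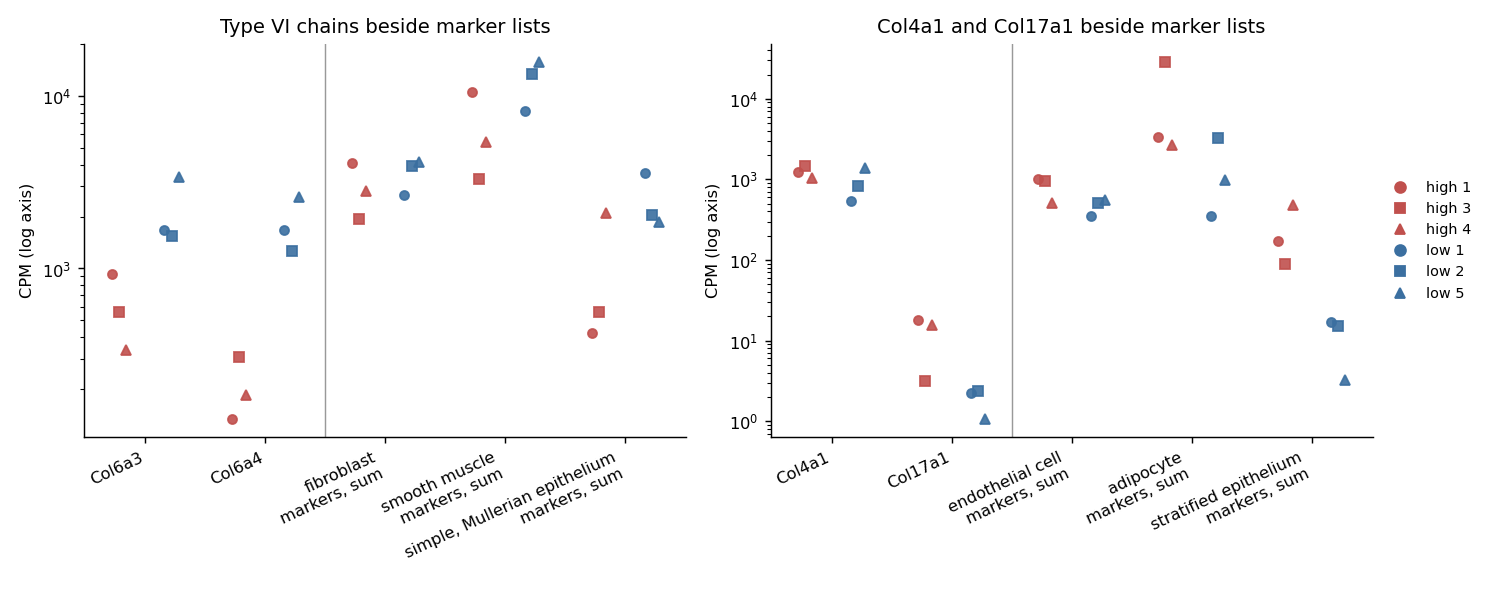
CPM (log axis) of collagen genes (left of the grey line in each panel) and summed CPM of marker lists (right of it) in each library; red symbols are the high and blue symbols the low litter size libraries. Fibroblast markers overlap between the groups (1940 to 4079 CPM in the high, 2683 to 4118 CPM in the low libraries) where Col6a4 does not. Col17a1 and the sum of the stratified epithelium markers are both higher in every high library, though not each marker of that list is.

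Basement membrane genes, all 6 of which passed the filter, lie in 3 head-to-head pairs, each pair read outward from a shared start region. They had 4 positive and 2 negative log2 fold changes, and adjusted p from 0.254 to 0.922. Col4a1 and Col4a2, on chromosome 8, encode the network found in nearly all basement membranes, and their annotated ends overlap by 22 bases on opposite strands. No source used here says whether the counting took strand into account. Col4a1 (11198423 to 11312826) had 1252, 1460 and 1031 CPM in high replicates 1, 3 and 4, against 535, 831 and 1392 CPM in low replicates 1, 2 and 5, a log2 fold change of 0.44 (SE 0.42). Only low replicate 5 reached the range of the high libraries, and the value ran from 0.16 to 0.87 when any 1 library was left out. Without the 3 libraries of lowest ovarian markers the Col4a1 value was 0.07. Col4a2 (11312805 to 11449287) had 770, 773 and 569 CPM in high replicates 1, 3 and 4, against 411, 572 and 979 CPM in low replicates 1, 2 and 5, a log2 fold change of 0.11 (SE 0.39), and without the 3 libraries of lowest ovarian markers it was -0.32. The ratio of Col4a1 to Col4a2 per kb was 1.59 to 1.84 in the high libraries and 1.27 to 1.42 in the low libraries. The 7 endothelial cell markers, from cells that rest on this network, summed to 515 to 1008 CPM in the high libraries and 355 to 555 CPM in the low libraries, and the 7 adipocyte markers to 2695 to 28726 CPM and 352 to 3277 CPM. Their part in the type IV values was not tested.

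Col4a3 and Col4a4, known best from the filter of the kidney and present in the wall of ovarian follicles, start 71 bases apart on chromosome 1. Col4a3 (82586921 to 82722059) had 9.56, 4.56 and 5.93 CPM in high replicates 1, 3 and 4, against 14.7, 12.9 and 33.8 CPM in low replicates 1, 2 and 5. The groups did not overlap (log2 fold change -1.61, SE 0.48, edgeR adjusted p = 0.254, DESeq2 adjusted p = 0.0374). Col4a4 (82448423 to 82586849) had 9.10, 6.62 and 16.7 CPM in high replicates 1, 3 and 4, against 19.8, 14.8 and 48.2 CPM in low replicates 1, 2 and 5. High replicate 4 lay above low replicate 2, and the log2 fold change was -1.35 (SE 0.55, edgeR adjusted p = 0.339). Low replicate 5 was the richest library for both. Without it Col4a3 had -1.04 and Col4a4 -0.68, and without the 3 libraries of lowest ovarian markers they had -2.06 and -1.06.

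Col4a5 and Col4a6, the X-linked pair, 1308 bases apart, make chains found in basement membranes of smooth muscle and epithelium. Col4a5 (141475385 to 141689234) had 207, 41.0 and 108 CPM in high replicates 1, 3 and 4, against 63.4, 93.8 and 94.1 CPM in low replicates 1, 2 and 5. The high libraries spanned the low ones on both sides (log2 fold change 0.50, SE 0.54, and -0.17 without high replicate 1). Col4a6 had 66.0, 11.8 and 22.6 CPM in high replicates 1, 3 and 4, against 13.7, 16.1 and 19.5 CPM in low replicates 1, 2 and 5. Here too high replicate 1 was the richest, and the log2 fold change of 1.02 (SE 0.60) was 0.06 without it. In each of the 3 pairs the log2 fold changes had the same sign over all libraries, though those of Col4a2 and Col4a5 changed sign when single libraries were left out.

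FACIT genes had 4 positive and 3 negative log2 fold changes among the 7 of 9 that passed the filter, with adjusted p from 0.273 to 0.822. Col12a1 (chromosome 9, 79598991 to 79718831) encodes type XII collagen, which coats type I fibrils in tissue under load. It had 187, 53.3 and 105 CPM in high replicates 1, 3 and 4, against 25.3, 23.8 and 56.6 CPM in low replicates 1, 2 and 5. Low replicate 5 lay just above high replicate 3 (log2 fold change 1.71, SE 0.55, edgeR adjusted p = 0.273, DESeq2 adjusted p = 0.0442). It was 1.16 without high replicate 1 and 1.32 without the 3 libraries of lowest ovarian markers. Col14a1, the related type XIV (chromosome 15, 55307750 to 55520803), had 334, 137 and 61.9 CPM in high replicates 1, 3 and 4, against 37.0, 76.6 and 140 CPM in low replicates 1, 2 and 5. The ranges overlapped, and the log2 fold change of 1.07 (SE 0.70) was 0.20 without high replicate 1 and -0.55 without the 3 libraries. Col16a1, a minor fibril-associated collagen (chromosome 4, 130047840 to 130099283), had 292, 86.0 and 104 CPM in high replicates 1, 3 and 4, against 185, 203 and 347 CPM in low replicates 1, 2 and 5, a log2 fold change of -0.61 (SE 0.53). The value was -1.38 without high replicate 1 and -0.27 without low replicate 5. Its libraries were ordered much as those of Col1a1, unlike those of Col12a1.

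Col22a1, known from junctions between tissues such as muscle and tendon (chromosome 15, 71795795 to 72034227), had 9.71, 3.37 and 3.22 CPM in high replicates 1, 3 and 4, against 0.347, 1.55 and 2.10 CPM in low replicates 1, 2 and 5. All high libraries lay above all low libraries, at 54 to 190 counts in the high and 6 to 54 counts in the low libraries. The log2 fold change was 2.01 (SE 0.78, edgeR adjusted p = 0.328, DESeq2 adjusted p = 0.101). It was 1.28 without high replicate 1 and 1.34 without the 3 libraries. Col9a2 and Col9a3, chains of the cartilage collagen type IX, had 1.71 (SE 0.91) and -0.34 (SE 0.57), and their partner Col9a1 had no counts. Col20a1 had -0.63 (SE 0.44).

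Of the remaining classes, the membrane-spanning collagens had 4 of 4 positive log2 fold changes. Col17a1, the collagen of hemidesmosomes that ties basal epithelial cells to the basement membrane (chromosome 19, 47646344 to 47692094), had 18.1, 3.12 and 15.7 CPM in high replicates 1, 3 and 4, against 2.25, 2.35 and 1.05 CPM in low replicates 1, 2 and 5. The groups did not overlap, though high replicate 3 came near (log2 fold change 2.71, SE 0.72, edgeR adjusted p = 0.215, DESeq2 adjusted p = 0.00469). It was 3.22 without the 3 libraries of lowest ovarian markers. The 6 stratified epithelium markers summed to 171, 90.5 and 479 CPM in high replicates 1, 3 and 4, against 17.2, 15.3 and 3.27 CPM in low replicates 1, 2 and 5, with 6 of 6 log2 fold changes positive and 1 of the 6 at 0 counts in high replicate 3 and 1 in low replicate 2. For 3 of the 6 all high libraries lay above all low libraries, where 8.75% of all tested genes met that rule. The others, Krt14, Dsg3 and Dsc3, overlapped between the groups. They had 1.62, 0.874 and 0 CPM in high replicate 3, against 6.07, 6.35 and 0.866 CPM in low replicate 1. The part of stratified epithelium in the Col17a1 values was not tested. Col7a1, which makes the anchoring fibrils under such epithelium, had a log2 fold change of the other sign, -0.77 (SE 0.36, edgeR adjusted p = 0.388). Col7a1 levels were 28.8, 17.9 and 12.1 CPM in high replicates 1, 3 and 4, against 25.2, 35.1 and 40.3 CPM in low replicates 1, 2 and 5.

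Col23a1, another membrane-spanning chain (chromosome 11, 51289920 to 51583918), had 34.9, 6.99 and 8.25 CPM in high replicates 1, 3 and 4, against 3.29, 2.83 and 4.25 CPM in low replicates 1, 2 and 5. The groups did not overlap, and high replicate 1 was far above the others (log2 fold change 2.27, SE 0.68, edgeR adjusted p = 0.254, DESeq2 adjusted p = 0.0191; 1.13 without high replicate 1 and 1.09 without the 3 libraries). Col13a1 had 0.68 (SE 0.50) and Col25a1 0.06 (SE 0.63). The multiplexins Col15a1 and Col18a1, which sit in vessel walls and carry fragments known to restrain vessel growth, differed by 0.45 (SE 0.49) and 0.70 (SE 0.48) on the log2 scale, and by -0.59 and -0.13 without the 3 libraries. The short-chain network genes Col8a1 and Col8a2 had 0.22 (SE 0.38) and -0.56 (SE 0.55). Col26a1 had -0.19 (SE 0.47) and Col28a1 0.82 (SE 0.69).

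**Figure D5:**
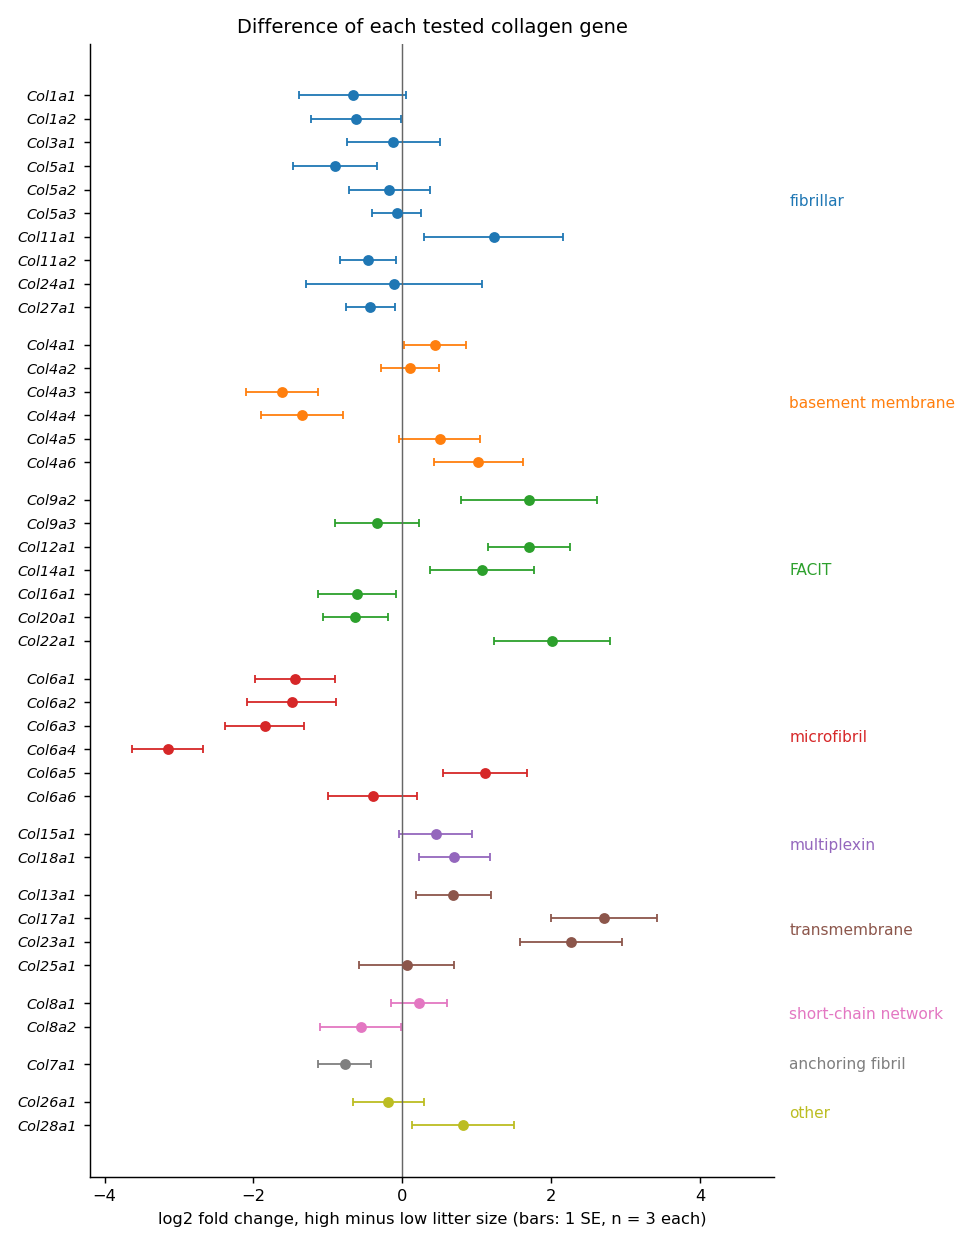
Log2 fold change, high minus low litter size, of each of the 40 tested collagen genes by class (points; bars are 1 SE, n = 3 libraries per group, edgeR). Col6a4 is farthest below 0, at -3.15, and Col17a1 farthest above, at 2.71; none of the 40 passed the test.

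The genes that process, cut, bind or accompany collagen were read from the same fit, and none of them passed (edgeR adjusted p below 0.05). DESeq2, beside 6.56% over all genes with a defined adjusted p, called 1 of the 32 processing genes, 0 of the 19 breakdown genes tested, 1 of the 9 receptors tested, 5 of the 16 basement membrane partners and 2 of the 16 fibril and microfibril partners. Of 32 genes for collagen processing, 10 had positive and 22 negative log2 fold changes, with a median of -0.18. P4ha3, a catalytic subunit of the prolyl hydroxylase that stabilises the collagen helix, had 7.87, 1.12 and 1.76 CPM in high replicates 1, 3 and 4, against 26.5, 29.3 and 39.8 CPM in low replicates 1, 2 and 5. All high libraries lay below all low libraries (log2 fold change -3.14, SE 0.75, edgeR adjusted p = 0.19, DESeq2 adjusted p = 0.000725). The cross-linking enzyme Loxl4 averaged 3.19 ± 1.18 CPM in high and 8.03 ± 2.89 CPM in low libraries (SD, n = 3 each), and the procollagen protease Tll1 averaged 8.58 ± 2.10 CPM in high and 4.59 ± 1.02 CPM in low libraries.

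Among 19 tested genes of collagen breakdown, 12 had positive and 7 negative log2 fold changes, with a median of 0.31. Mmp8, the collagenase of neutrophils, had a log2 fold change of 4.47 (SE 1.70, edgeR adjusted p = 0.323) at 0.204, 6.49 and 6.89 CPM in high replicates 1, 3 and 4, against 0, 0 and 0.546 CPM in low replicates 1, 2 and 5. High replicate 1 lay below low replicate 5, so the groups overlapped. Low replicate 5 held all 14 counts of the low libraries, and without it the fitted value was 9.37, which depends on the prior count and is no measure of size. The gelatinase Mmp9 had 0.52 (SE 0.22) and the protease inhibitor Timp4 3.0 (SE 1.22), which was 1.63 at its lowest with 1 library left out. Of 9 tested collagen receptors 5 had positive and 4 negative log2 fold changes, with a median of 0.22. Itga2, the alpha 2 subunit of a collagen-binding integrin, had 15.1, 17.5 and 36.1 CPM in high replicates 1, 3 and 4, against 96.6, 75.2 and 54.4 CPM in low replicates 1, 2 and 5, a log2 fold change of -1.72 (SE 0.40, edgeR adjusted p = 0.19, DESeq2 adjusted p = 0.00565). The groups did not overlap. Its partner Itgb1 had -0.50 (SE 0.28), and Ddr2, a receptor kinase for fibrillar collagen, had 0.25 (SE 0.26).

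Of the 16 laminins and other basement membrane partners, 10 had positive and 6 negative log2 fold changes, with a median of 0.33. Lama5, a laminin alpha chain, averaged 120 ± 22.4 CPM in high and 334 ± 98.1 CPM in low libraries (SD, n = 3 each; log2 fold change -1.48, SE 0.30). Lamc3 had 2.23 (SE 0.55). Of the 16 fibril and microfibril partners 5 had positive and 11 negative log2 fold changes, with a median of -0.27. Eln, elastin, averaged 91.9 ± 20.4 CPM in high and 289 ± 106 CPM in low libraries (SD, n = 3 each; log2 fold change -1.66, SE 0.35, edgeR adjusted p = 0.173). Fbln2, a fibulin of elastic and basement membrane matrix, had -1.39 (SE 0.36), and the fibrillin Fbn2 -1.25 (SE 0.48). For Lama5, Eln, Fbln2 and Fbn2 all high libraries lay below all low libraries, and for Lamc3 all lay above. Of the 16 basement membrane partners, the high libraries were above in 2 and below in 3. Of the 16 fibril and microfibril partners, they were above in 0 and below in 3. Over all tested genes the shares were 8.75% above and 10.8% below.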

How the data were processed

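The deposited table held estimated counts per Ensembl gene, as whole numbers with no further normalization by the authors. Per the submitters' processing notes, Trim Galore, kallisto and DESeq2 were used with build GRCm38. That the values are rounded kallisto estimates was inferred. Libraries were made from polyadenylated RNA, per the labels' protocols. Symbols were found for 35869 of 36727 genes. Positions, gene types and lengths (longest protein-coding transcript) are from GENCODE M21.

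Genes were kept by filterByExpr (minimum count 10, minimum total 15), scaled by TMM, and compared (high minus low) by the edgeR quasi-likelihood test. The versions were edgeR 4.0.16 and R 4.3.3. P-values were adjusted by the Benjamini-Hochberg method over all genes tested, and the threshold was 0.05. The biological coefficient of variation was 46.8%. CPM uses TMM-scaled totals, and the SE is the fold change over the root of F. DESeq2 1.42.0 and limma 3.58.1 were alternatives. DESeq2 left 822 adjusted p-values undefined. The tests were checked on simulated data. Over tested genes, libraries of 1 group correlated at a Spearman rho of 0.892 to 0.96, and libraries of different groups at 0.857 to 0.934.

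The members and lists were chosen with earlier results of these data known. All collagen genes were eligible to be named, with library values for the 3 of highest mean CPM and the 2 of smallest p in each of 4 classes, and the 3 of smallest p in each pathway list. Library values of further members were added after they were seen. The result for 1 gene of the pathway lists is not reported here.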

Additional observations from a re-analysis of the deposited data

How the results depend on the processing

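No paired analysis was possible because replicate 1 is the sole number found in both groups. Each of 14 other settings was run. Over all genes, edgeR called 1 gene, DESeq2 1026, limma voom 3 and library size alone 2, and the count was 0 to 1 with 1 library left out and 0 without the 3 libraries of lowest ovarian markers. Collagen genes called numbered 0 in the main result and in every setting but DESeq2, which called 6. The FACIT median log2 fold change was 0.20 to 1.645 with 1 library left out and -0.14 without the 3 libraries, and the microfibril median was -2.04 to -0.95 with 1 library left out and -2.50 without the 3 libraries. The fibrillar and basement membrane medians moved by less than the spread between replicates, but their signs did not hold. The fibrillar median was positive without low replicate 5. The basement membrane median was negative without high replicate 1 and without the 3 libraries. Of 55 collagen and pathway genes followed, 40 kept their sign in every setting that gave a value. Without the 3 libraries Col4a2 had -0.32, Col14a1 -0.55, Col15a1 -0.59, Col18a1 -0.13 and Ddr2 -0.054. With 1 library left out the log2 fold change ran from -1.51 to 0.025 for Col1a1, -2.58 to 0.51 for Col24a1, -0.50 to 0.54 for Col25a1, -0.58 to 0.14 for Col26a1, -0.75 to 0.40 for Col3a1, -0.14 to 0.52 for Col4a2, -0.17 to 0.91 for Col4a5, -0.84 to 0.20 for Col5a2, -0.24 to 0.28 for Col5a3, -0.80 to 0.48 for Col6a6 and -0.021 to 0.47 for Col8a1. The cause was not tested. With 3 libraries per group and this spread, a log2 fold change as large as that of Col6a4 did not pass edgeR's test over all genes.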
